A study of Mus musculus with 14 samples.

Results

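ADAM8 and 7 other proteases and processing enzymes were followed across regulatory T cells (Tregs) of the mouse intestine in which the AP-1 transcription factor JunB was present or deleted. The 8 genes were Adam8, Adam10, Adam17, Adam19, Furin, Pcsk1, Cpd and Lgmn, chosen by name from 53801 genes in one count table and 55487 in the other, and all 8 were found in both. Adam8, Cpd, Lgmn and Pcsk1 had been put on the list because of their values in these same libraries, so their levels and differences are given as a description, with no test. Adam10, Adam17, Adam19 and Furin were added as relatives and partners of those genes, and tests are given for them.

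RNA-seq of sorted Tregs gave 14 libraries in 6 groups. Peyer's patch (PP) Tregs were CD4+Foxp3(YFP)+CD62L- cells from untreated male mice, generally 8 to 12 weeks old, with the genotype JunB F/+ Foxp3YFPcre (HET, 2 libraries) or JunB F/F Foxp3YFPcre (KO, 2 libraries). The other 10 libraries came from mice of 10 to 12 weeks with JunB F/+ (iHET) or JunB F/F (iKO), Foxp3ERT2cre+ in males or Foxp3ERT2cre+/+ in females, and Rosa26-tdTomato+. All of these mice, iHET controls included, were gavaged with 8 mg tamoxifen in olive oil on days 0, 1 and 3 and were used on day 7. Their TCRb+CD4+Foxp3(EGFP)+tdTomato+ cells were taken from the colon lamina propria (colonic Tregs, 3 iHET and 3 iKO), and from PP with CD25- added to the gate (CD25- PP Tregs, 2 iHET and 2 iKO). Number 1 of each of these groups was male and the others were female. Every control carried 1 floxed Junb allele and a Cre expressed from the Foxp3 locus, and the Foxp3YFPcre line is described in the study's methods as prone to deletion outside Tregs. Colonic and CD25- PP Tregs differed in organ, in the CD25 gate and in enzymatic digestion, which cannot be told apart.

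The 8 enzymes act on proteins at or on their way to the cell surface, or in lysosomes. ADAM proteases are membrane-bound metalloproteases that cut other membrane proteins close to the membrane and release their outer part: ADAM10 opens Notch signalling, ADAM17 sheds TNF and L-selectin, ADAM8 can cleave PSGL-1 on leukocytes, and ADAM19 is meltrin beta. Furin and PC1/3 (Pcsk1) are proprotein convertases, which cut precursors after basic residues. Furin matures pro-TGF-beta1 and is needed in T cells for tolerance, whereas PC1/3 is best known for hormone precursors in neuroendocrine cells. Carboxypeptidase D (Cpd) trims the basic residues that convertases leave, and legumain (Lgmn) is a lysosomal endopeptidase that cuts after asparagine.

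JunB binds DNA as part of AP-1 dimers, so the promoters of the 8 genes were searched on both strands for the AP-1 letters TGANTCA and for TGACGTCA, a related site bound by ATF and CREB dimers. RefSeq windows of GRCm38.p6, from 250 bases before to 50 bases after a start site, were found for 8 of 8 genes (12 windows). Among all 32851 windows of 300 bases, 7.81% held TGANTCA and 1.79% held TGACGTCA. Of the 12 windows, TGANTCA stood in 1, of Adam19, at 131 bases before the start, and TGACGTCA in 1, of Pcsk1, at 78 bases before the start. The Adam8 window is shown because the other genes are compared with it, and the Pcsk1 and Adam19 windows because they hold the matches, which are in capitals. A match is a string of letters and not a measured site.
Adam8 (chr7:139992513-139992812, minus strand): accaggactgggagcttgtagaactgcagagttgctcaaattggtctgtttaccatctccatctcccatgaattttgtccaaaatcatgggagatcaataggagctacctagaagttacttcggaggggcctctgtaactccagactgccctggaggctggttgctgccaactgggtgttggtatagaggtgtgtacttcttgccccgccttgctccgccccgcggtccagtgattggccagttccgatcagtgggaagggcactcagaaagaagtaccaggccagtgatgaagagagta
Pcsk1 (chr13:75089607-75089906, plus strand): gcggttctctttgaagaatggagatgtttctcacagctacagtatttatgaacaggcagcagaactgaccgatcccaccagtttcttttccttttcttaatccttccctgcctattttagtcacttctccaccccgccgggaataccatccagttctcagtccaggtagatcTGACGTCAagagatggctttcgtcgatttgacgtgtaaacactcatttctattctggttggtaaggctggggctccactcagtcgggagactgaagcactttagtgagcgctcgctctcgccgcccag
Adam19 (chr11:46055734-46056033, plus strand): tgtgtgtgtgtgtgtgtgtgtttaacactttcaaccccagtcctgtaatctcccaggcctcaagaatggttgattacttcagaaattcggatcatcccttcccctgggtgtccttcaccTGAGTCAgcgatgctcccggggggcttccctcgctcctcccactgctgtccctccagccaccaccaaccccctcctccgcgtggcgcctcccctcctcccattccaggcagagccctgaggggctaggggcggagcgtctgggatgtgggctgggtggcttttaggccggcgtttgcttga

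Library totals ran from 26274861 to 35508709 counts, and 3 counts, taken as the floor of detection, corresponded to 0.0845 to 0.114 CPM (counts per 1000000). The floor covers counting error only, whereas each SD and SE given below includes the spread between libraries. Junb, the targeted gene, was at 11.6%, 18.5% and 13.3% of its control level in PP, CD25- PP and colonic Tregs with both alleles deleted, and groups did not overlap in any of the 3 comparisons. All 6 Treg identity markers (Foxp3, Cd4, Cd3e, Ikzf2, Ctla4 and Il2ra) had counts in every group, summing to 3993 to 7588 CPM per library. Markers of other cells were present at lower sums: 62.5 to 352 CPM for 12 macrophage and dendritic cell genes, 70.6 to 230 CPM for 6 B and plasma cell genes, 42.8 to 1076 CPM for 8 epithelial genes and 8.10 to 64.0 CPM for 8 enteroendocrine genes. As the samples were bulk, fewer cells of a type and less RNA per cell cannot be told apart. The study reports a near-complete loss of T follicular regulatory (Tfr) cells in PP of KO mice, with a loss of CD25- Tregs. It ascribes most of its PP KO differences to the missing Tfr cells. The part of this change in cell composition in the PP KO differences given below was not tested. The labels number the mice but do not describe their litters, and p-values measure the spread between these libraries.

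Colonic iHET Tregs held a different order of the 8 transcripts from PP Tregs. On a per-length scale (TPM, transcripts per 1000000), the order of levels in colonic iHET Tregs was Furin (251 ± 36.2, mean ± SD, n = 3), Lgmn (216 ± 45.4) and Adam8 (206 ± 7.15), whose ranges overlapped from one to the next, then Adam10 (118 ± 24.8), Adam19 (91.6 ± 29.8), Cpd (68.8 ± 16.7), Adam17 (59.4 ± 4.28) and Pcsk1 (36.2 ± 9.85). In CD25- PP iHET Tregs the TPM order began with Adam10 (142 ± 7.01, n = 2) and Adam19 (108 ± 27.0), and Adam8 took the sixth place at 30.9 ± 2.41. PP HET Tregs of the other line had Adam10 first (194 ± 12.4 TPM, n = 2) and Lgmn next (148 ± 33.2 TPM), with Adam8 again in the sixth place (46.3 ± 6.46 TPM). Pcsk1 was last in all 6 groups. Mean TPM of Adam10, Adam17 and Adam19 lay between 59.4 and 194 in all 3 control groups.

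**Figure D1:**
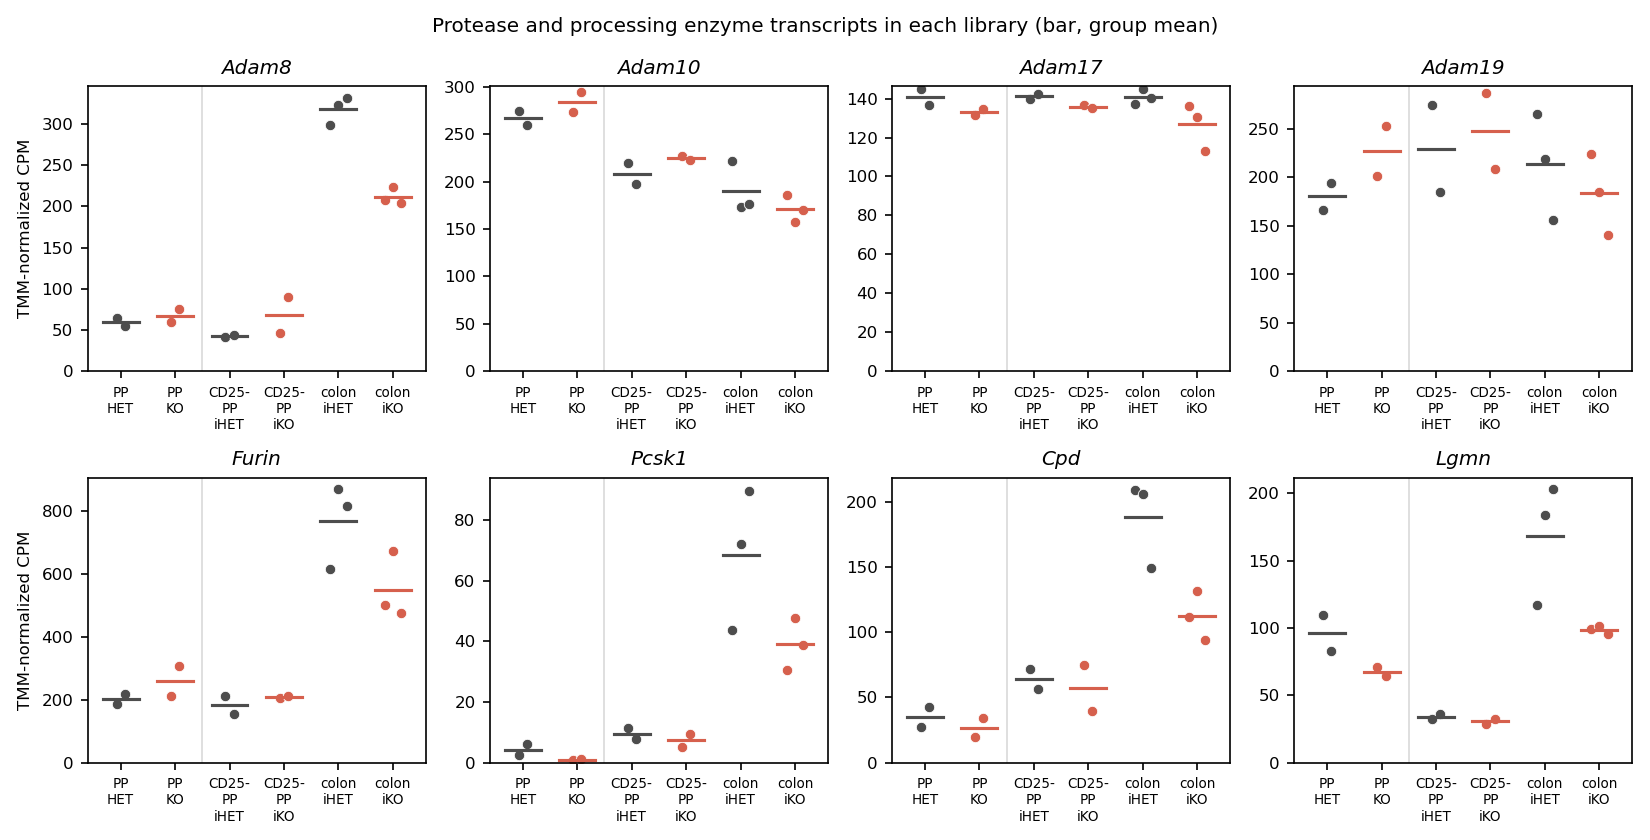
Level of each of the 8 transcripts (y axis, TMM-normalized CPM from 0) in each library (points) of the 6 groups (x axis), with bars at group means, control in grey and Junb-deleted in red. Adam8, Cpd and Lgmn stood highest in the 3 colonic iHET libraries, Furin and Pcsk1 were highest in 2 of these with 1 colonic iKO library above the other, and Adam17 stayed between 113 and 145 CPM in every library. PP HET and PP KO came from another mouse line and from a count table scaled on its own.

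Adam8 was high in the colon and lower there without JunB. In colonic iHET Tregs it measured 299, 322 and 331 CPM, and in colonic iKO Tregs 207, 223 and 204 CPM. The 2 groups did not overlap, and means were 318 ± 16.8 and 212 ± 10.3 CPM (SD, n = 3 and 3), a log2 difference of -0.59 (SE 0.0985). Among mice of the same number, iKO held 69.4%, 69.3% and 61.6% of iHET. Leaving out any one of the 6 libraries gave a log2 difference from -0.63 to -0.53. Among all genes of a library, Adam8 lay at the 96.7th to 97.2nd percentile of CPM in colonic iHET and at the 95.1st to 95.4th in colonic iKO.

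In PP the same transcript lay at lower percentiles of CPM than in the colon, and it was not lower in Junb-deleted Tregs. These were the 72.9th to 86.2nd percentile in CD25- PP Tregs and the 66.0th to 73.2nd in PP Tregs. CD25- PP Tregs had 41.2 and 44.2 CPM in iHET and 45.8 and 90.5 CPM in iKO, and the groups did not overlap. The log2 difference was 0.67 (SE 0.304), which rested on a single library: without iKO replicate 2 it was 0.11, and without iKO replicate 1 it was 1.08. PP Tregs of the Foxp3YFPcre line had 64.9 and 55.2 CPM in HET, against 59.6 and 75.1 CPM in KO, which overlapped (log2 difference 0.16, SE 0.138). Adam8 thus stood 7.45-fold higher in colonic than in CD25- PP Tregs with 1 Junb allele and 3.11-fold higher with none. The contrast of those differences, the organ by genotype term, was -1.26 on the log2 scale (SE 0.320), ranging from -1.68 to -0.70 over the fits that each left out 1 library.

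The 3 other ADAM members passed no test between organs or genotypes by edgeR as fitted here, although Adam19 passed in PP Tregs under 2 other settings given with the PP values. Adam17, the TNF sheddase, measured 137, 145 and 140 CPM in colonic iHET and 136, 131 and 113 CPM in colonic iKO, and in PP it lay between 132 and 145 CPM in all 8 libraries. Its group means in the inducible line were 141 ± 1.91 and 136 ± 0.790 CPM in CD25- PP iHET and iKO (n = 2 each) and 141 ± 3.76 and 127 ± 12.1 CPM in colonic iHET and iKO (n = 3 each). The organ difference of Adam17 in iHET was -0.00494 on the log2 scale (SE 0.113, adjusted p = 0.989, edgeR quasi-likelihood test with Benjamini-Hochberg adjustment over all genes tested).

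Adam10 was at 222, 173 and 176 CPM in colonic iHET and 186, 158 and 171 CPM in colonic iKO. CD25- PP Tregs had 220 and 197 CPM in iHET and 227 and 223 CPM in iKO, so the colonic and PP ranges met in iHET and did not in iKO. The organ differences did not pass the test in either genotype (log2 -0.13, SE 0.139, adjusted p = 0.634 in iHET, and -0.39, SE 0.139, adjusted p = 0.140 in iKO, both by edgeR). Of these 3, Adam19 varied most between libraries of the same group in the inducible line, at 274 and 184 CPM in CD25- PP iHET, 287 and 208 CPM in CD25- PP iKO, 265, 219 and 156 CPM in colonic iHET and 224, 185 and 140 CPM in colonic iKO. Its organ difference was -0.11 (SE 0.275, adjusted p = 0.870) in iHET and -0.43 (SE 0.275, adjusted p = 0.40) in iKO. Of Adam19's exon bases 718 are shared with the antisense genes Gm16033 and Gm16034, of Adam17's 311 with Iah1, of Furin's 118 with Gm44851 and of Adam8's 46 with Gm16201, and since counting ignored strand, reads there cannot be split.

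Furin, the convertase of pro-TGF-beta1, was the one tested member that differed between organs. It measured 213 and 156 CPM in CD25- PP iHET against 617, 871 and 815 CPM in colonic iHET, and the groups lay far apart. In iKO it measured 207 and 212 CPM in CD25- PP against 502, 672 and 477 CPM in the colon, again without overlap. Furin rose by 2.06 on the log2 scale from PP to colon in iHET (SE 0.204, adjusted p = 0.00150, edgeR), 4.16-fold by group means, and this call held in all 10 fits that left out a library. In iKO the log2 difference was 1.40 (SE 0.204, adjusted p = 0.0102, edgeR), 2.63-fold by group means. The iKO call was lost without either CD25- PP iKO library, at adjusted p = 0.0954 without replicate 1 and 0.104 without replicate 2, although the log2 difference stayed at 1.39 and 1.42.

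In colonic iKO Tregs Furin averaged 550 ± 106 CPM against 768 ± 133 CPM in iHET (SD, n = 3 each). The groups overlapped, since the highest iKO library (672) exceeded the lowest iHET library (617). The log2 difference was -0.49 (SE 0.132, adjusted p = 0.947, edgeR), with an unadjusted p of 0.0125, so it did not pass the test over all genes. Against the iHET mouse of the same number, iKO held 81.3%, 77.2% and 58.6% of iHET. In PP the direction of the values was the other way: PP KO Tregs had 212 and 306 CPM against 187 and 219 CPM in HET (log2 0.35, SE 0.16, adjusted p = 0.390, edgeR, but 0.0157 with the replicate block and 0.00379 with no filter on low counts), and CD25- PP iKO averaged 209 ± 3.59 against 185 ± 40.5 CPM in iHET (log2 0.17, SE 0.171, adjusted p = 0.999). Without PP KO replicate 1 the Furin difference in PP Tregs was 0.59 and passed (adjusted p = 0.0443). The organ by genotype term for Furin was -0.66 (SE 0.288, adjusted p = 0.99992).

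Pcsk1, the neuroendocrine convertase, was the rarest of the 8 and also the one with the widest span between groups. Colonic iHET Tregs had 43.8, 72.0 and 89.5 CPM and colonic iKO Tregs 30.7, 47.7 and 38.8 CPM, with 1 iKO library above the lowest iHET library. CD25- PP Tregs had 11.3 and 7.82 CPM in iHET and 5.26 and 9.54 CPM in iKO, which overlapped. PP HET Tregs had 2.55 and 6.08 CPM, from 79 and 167 counts, and PP KO Tregs 0.754 and 1.26 CPM, from 21 and 34 counts, so these groups did not overlap. Log2 differences with Junb deletion were -2.06 (SE 0.508) in PP, -0.38 (SE 0.356) in CD25- PP and -0.77 (SE 0.174) in colonic Tregs. In PP Tregs the value moved from -2.55 without HET replicate 1 to -1.31 without HET replicate 2. The enteroendocrine marker sum was 64.0 and 16.7 CPM for PP HET against 17.8 and 20.3 CPM for PP KO, and in the colon it was 8.10 to 25.3 CPM in iHET and 13.9 to 23.7 CPM in iKO. Epithelial markers fell together with Pcsk1 in PP KO: 8 of 8 had values below 0 (median log2 -3.20) and 6 passed, with sums of 169 and 111 CPM in HET against 48.6 and 42.8 CPM in KO. The part of either kind of marker in the Pcsk1 differences was not tested.

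Cpd was likewise high in the colon and lower there in iKO. Colonic iHET Tregs had 209, 206 and 150 CPM and colonic iKO Tregs 112, 132 and 93.7 CPM, without overlap (log2 difference -0.74, SE 0.104). Each iKO mouse held less than its same-numbered iHET mouse, at 53.5%, 64.0% and 62.7%. CD25- PP Tregs had 71.9 and 56.5 CPM in iHET and 74.5 and 39.5 CPM in iKO (log2 -0.18, SE 0.302), and the sign there depended on a single library, with -0.71 without iKO replicate 1 and 0.22 without iKO replicate 2. PP Tregs had 27.2 and 42.9 CPM in HET, against 19.9 and 33.9 CPM in KO (log2 -0.38, SE 0.273), moving from -0.82 without KO replicate 2 to -0.016 without HET replicate 2. Colonic levels were 2.93-fold those of CD25- PP Tregs in iHET and 1.97-fold in iKO.

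Lgmn had the lowest spread of the 8 members over colonic iKO libraries, relative to its mean. Its values were 98.9, 102 and 95.7 CPM in colonic iKO against 117, 184 and 203 CPM in colonic iHET, without overlap (log2 difference -0.73, SE 0.176). Against the iHET mouse of the same number, iKO held 84.3%, 55.4% and 47.2%. CD25- PP Tregs had 32.2 and 35.8 CPM in iHET and 28.9 and 32.6 CPM in iKO, which overlapped (log2 -0.15, SE 0.161). PP Tregs of the Foxp3YFPcre line, from a count table scaled on its own, had 110 and 82.9 CPM in HET. Their KO libraries had 70.7 and 64.5 CPM, without overlap (log2 -0.51, SE 0.136, between -0.70 and -0.29 when 1 library was left out). Lgmn is also a macrophage transcript, and the macrophage and dendritic cell marker sum was 218, 119 and 352 CPM in colonic iHET, 286, 188 and 118 CPM in colonic iKO and 62.5 to 110 CPM in CD25- PP Tregs. In PP the sum was 125 and 231 CPM for the HET libraries against 177 and 127 CPM for KO, and 9 of 9 tested markers had values below 0 in PP KO (median log2 -0.37, 0 passed), the direction of Lgmn there. Fcgr1 was at 0 in all 4 CD25- PP libraries, and the part of these markers in the organ and genotype differences of Lgmn was not tested.

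Read together within the colon, all 8 members had a lower fitted value in iKO than in iHET, with log2 differences from -0.77 to -0.15 and a median of -0.54, beside a median of 0.0048 over the 16313 genes tested. Every member was also below 100% of iHET in each of the 3 same-numbered pairs. Adam17 had the smallest gap in number 1 (99.4%) and Adam10 in number 3 (96.9%). There, 632 genes had an unadjusted p under 0.05. None of the 8 passed an adjusted p of 0.05 by the edgeR quasi-likelihood test as fitted here, and of all genes 0.00613% did (Junb alone). Junb itself lost this call in 4 of the 6 fits without a library (without replicate 1 or 2 of either genotype), up to adjusted p = 0.274, and in CD25- PP Tregs it did not pass (log2 -2.44, SE 0.164, adjusted p = 0.0940, edgeR), so a gene that misses the threshold in these comparisons is not shown to be unchanged. By the DESeq2 Wald test 4 of the 8 passed, all of them genes picked for their values, beside 50 genes in all. The study's likelihood ratio test, also of edgeR, called 2 members and 25 genes. With no filter on low counts edgeR called 1 member and 24 genes. These members were picked genes as well. Groups did not overlap for 4 members (Adam8, Cpd, Lgmn and Adam17), where 8.35% of all genes did not overlap. As 4 of the 8 were chosen with these values known, nothing is read from these counts, the shared direction or the median of the 8. The 4 genes that were not picked had a median of -0.19, and adjusted p = 0.947 for each.

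In PP Tregs the members did not share a direction. Fitted differences between KO and HET were above 0 for 4 and below 0 for 4, with a median of 0.0023. None passed an adjusted p of 0.05 by the edgeR quasi-likelihood test as fitted here, where 3.35% of 12224 genes did (0.99% higher and 2.36% lower). An unadjusted p under 0.05 was found for 1709 genes. By the DESeq2 Wald test 2 of the 8 passed, beside 696 genes in all, and by the study's exact test 2, beside 691. Nothing is read from these counts, as members were picked with the values known. Non-overlapping groups were found for 4 members (Adam17, Adam19, Lgmn and Pcsk1), where 43.6% of all genes did not overlap. With the replicate block 5 of the 8 and 1015 genes passed, and with no filter on low counts 4 and 1305. Adam19 measured 201 and 253 CPM in KO against 166 and 194 CPM in HET (log2 0.33, SE 0.123, adjusted p = 0.255, edgeR), and passed with the block (adjusted p = 0.00998) and with no filter (0.00931). Adam10 (0.09, SE 0.0797) and Adam17 (-0.08, SE 0.0762) differed by less than 0.1. In CD25- PP Tregs 4 were above and 4 below 0, with a median of 0.02. By edgeR as fitted here 0 of 8 and 0% of 17079 genes passed, and 618 genes had an unadjusted p under 0.05. DESeq2 also called 0 of the 8, and edgeR with no filter on low counts called 1, beside 232 genes. The groups of 3 members did not overlap there, beside 32.1% of all genes.

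**Figure D2:**
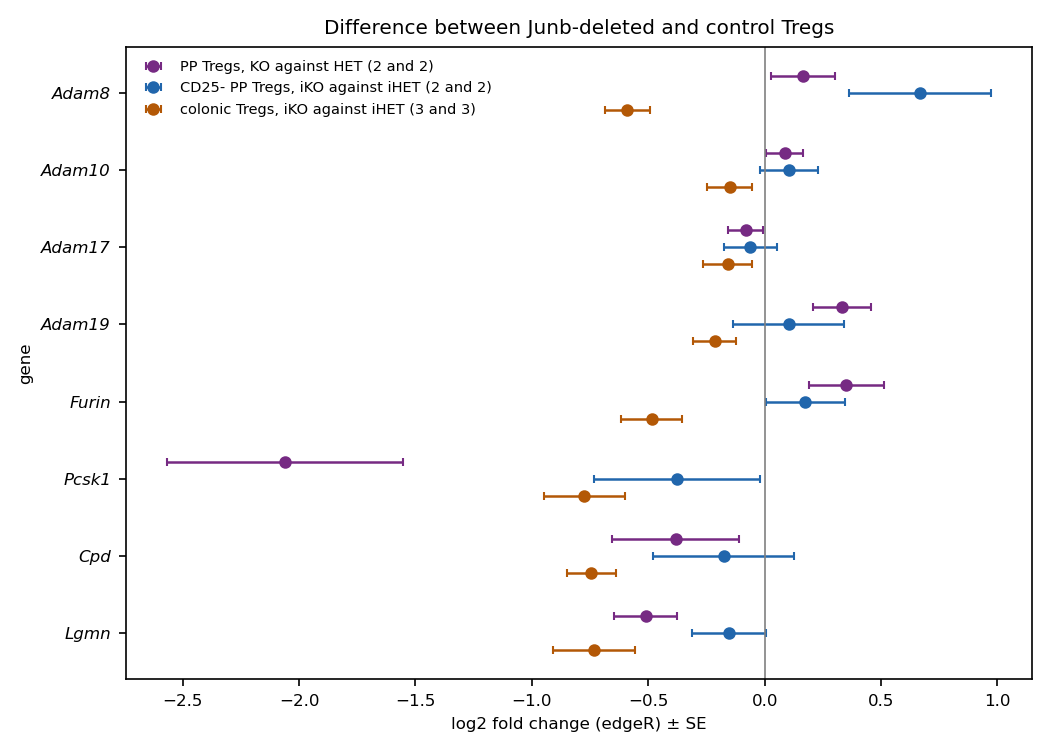
Log2 fold change (x axis, edgeR, ± SE) of each gene (y axis) between Junb-deleted and control Tregs in the 3 comparisons, by colour. All 8 colonic points lie left of 0, from -0.77 to -0.15, while the PP points lie on both sides, with Pcsk1 farthest at -2.06.

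Between organs the 8 genes separated into 2 sets. Adam8, Pcsk1, Lgmn, Furin and Cpd were higher in colonic than in CD25- PP Tregs, at log2 differences of 2.90 (SE 0.227), 2.84 (SE 0.345), 2.30 (SE 0.203), 2.06 (SE 0.204) and 1.55 (SE 0.267) in iHET. Each of these 5 had every colonic iHET library above every CD25- PP iHET library, and of all genes 38.7% had groups that did not overlap in one direction or the other. Adam10, Adam17 and Adam19 lay between -0.13 and -0.00494. In iHET 5 of 8 members passed, where 6.45% of 18626 genes did (4.22% higher and 2.23% lower), but 4 of those 5 were picked for such values and nothing is read from the count. In iKO the same 5 were at 1.64 (SE 0.226), 2.4 (SE 0.347), 1.68 (SE 0.203), 1.40 (SE 0.204) and 0.98 (SE 0.267), and 4 of 8 passed, beside 4.07% of all genes (2.48% higher and 1.59% lower). Groups did not overlap in iKO for 6 of the 8 and for 43.9% of all genes. Without CD25- PP iHET replicate 2, 3 members passed in iHET, and in iKO 1 passed without CD25- PP iKO replicate 1 and 3 without replicate 2.

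**Figure D3:**
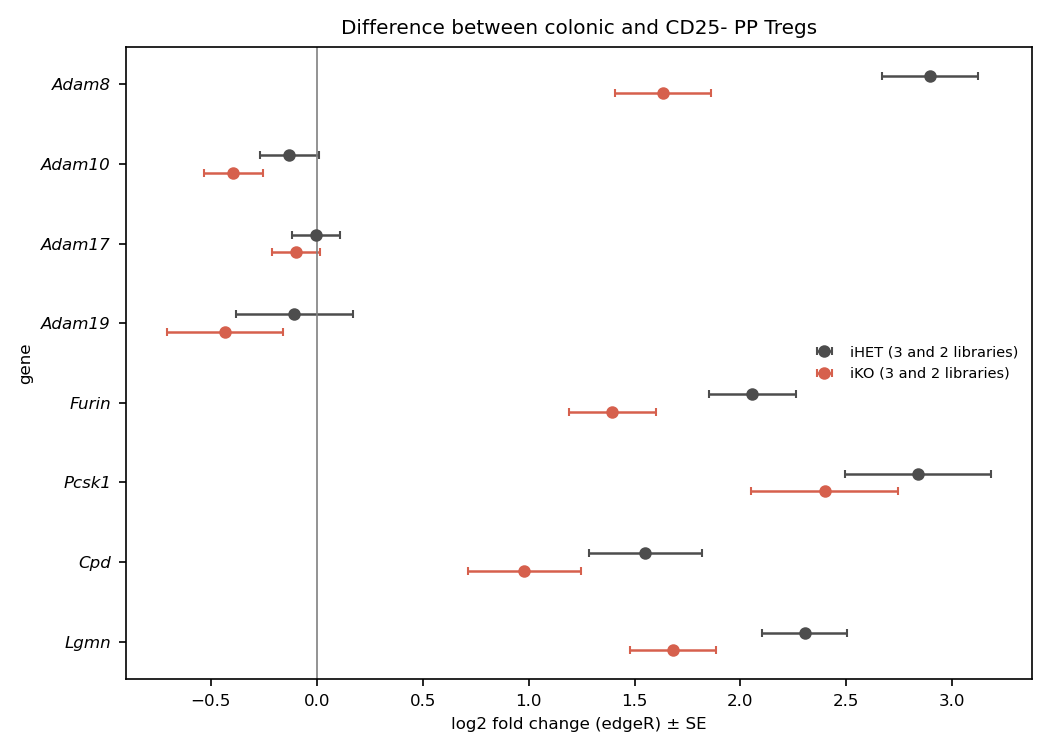
Log2 fold change (x axis, edgeR, ± SE) of each gene (y axis) between colonic and CD25- PP Tregs, for iHET (grey) and iKO (red), 3 and 2 libraries each. Adam8, Furin, Pcsk1, Cpd and Lgmn lie between 0.98 and 2.90, and Adam10, Adam17 and Adam19 lie between -0.43 and -0.00494. Each iKO point is to the left of its iHET point.

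The colon-to-PP ratio of group mean CPM was smaller in iKO for all 8 members. It went from 7.45 to 3.11 for Adam8, from 7.17 to 5.28 for Pcsk1, from 4.94 to 3.21 for Lgmn, from 4.16 to 2.63 for Furin and from 2.93 to 1.97 for Cpd. Adam10, Adam17 and Adam19 went from 0.913, 0.997 and 0.929 to 0.761, 0.933 and 0.741. The organ by genotype term was below 0 for 8 of 8, with a median of -0.51 beside -0.00016 over all genes. For Pcsk1 it was 0.0385 without CD25- PP iKO replicate 2. As 4 of the 8 were picked with such values known, nothing is read from that count, the median or the shared direction of the ratios. For the members not picked, the organ by genotype term was -0.26 (Adam10, SE 0.197), -0.095 (Adam17, SE 0.160), -0.33 (Adam19, SE 0.389) and -0.66 (Furin, SE 0.288). None of the 8 members and 0% of all genes passed for that term by edgeR as fitted here, and 622 genes had an unadjusted p under 0.05. DESeq2 called 0 of the 8, and edgeR with no filter on low counts called 1, beside 282 genes. Junb itself had 1.57-fold more in the colon than in CD25- PP Tregs in iHET (log2 0.65, SE 0.142, adjusted p = 0.0299, edgeR), a call lost in 7 of the 10 fits without a library, with adjusted p up to 0.236 without CD25- PP iHET replicate 2.

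Furin, Lgmn and Pcsk1 followed Adam8 closely over the 10 libraries of the inducible line. Pearson's r of log2 CPM with Adam8 was 0.960 for Furin, 0.953 for Lgmn, 0.947 for Pcsk1 and 0.806 for Cpd, against -0.171 for Adam17, -0.405 for Adam19 and -0.619 for Adam10. These values describe 10 libraries that form 2 clusters by organ, and no p is given. Adam8, Lgmn, Pcsk1 and Cpd were picked for values in these same libraries, so nothing is read from their r or rank. Of 18626 genes the 5 with the highest r were Mmp9 (0.983), Dyrk3, Fgl2 (both 0.978), Myo1e and Bcl2l1 (both 0.976). Mmp9, a secreted gelatinase and itself a metalloprotease, averaged 30.3 and 44.2 CPM in CD25- PP iHET and iKO and 378 and 261 CPM in colonic iHET and iKO. Fgl2, a secreted suppressive factor of Tregs, averaged 138, 160, 578 and 406 CPM in those groups, Bcl2l1, which encodes the survival protein Bcl-xL, 55.5, 69.2, 256 and 201 CPM, and Myo1e, an unconventional myosin, 147, 186, 313 and 266 CPM. Dyrk3, a kinase, averaged 0.448, 1.30, 12.1 and 8.17 CPM. Furin was ranked 50, Lgmn 72, Pcsk1 104 and Cpd 1216 among the genes ordered by r.

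**Figure D4:**
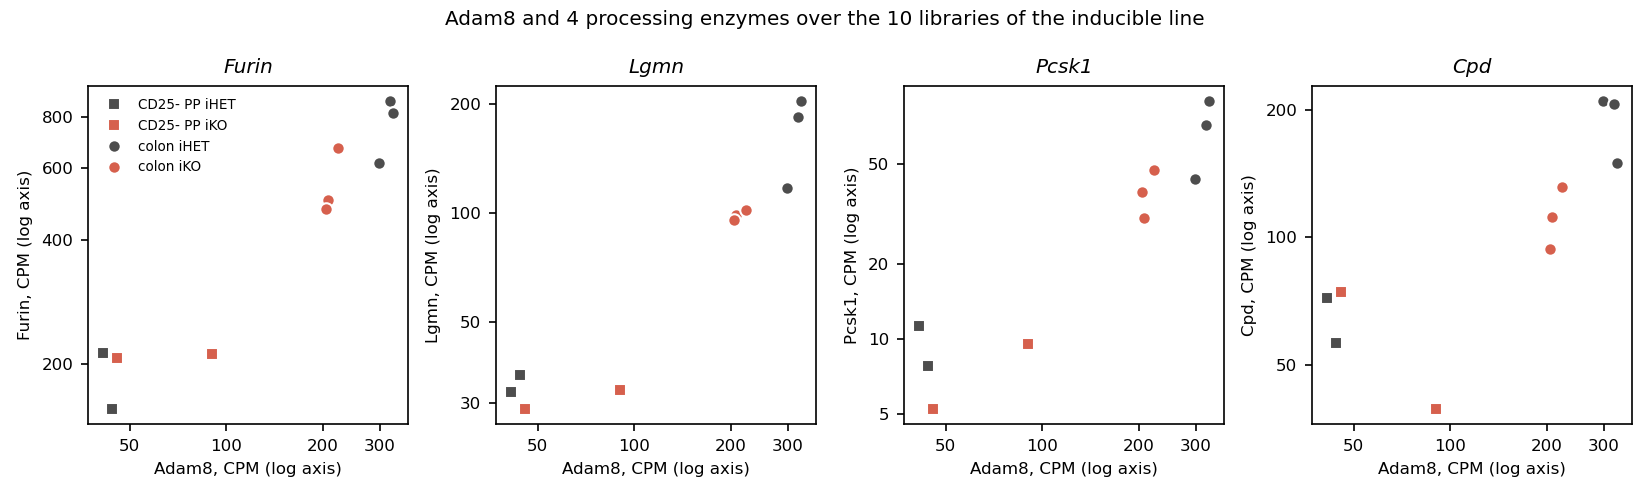
CPM of Furin, Lgmn, Pcsk1 and Cpd (y axes, log) against CPM of Adam8 (x axis, log) in the 10 libraries of the inducible line, squares for CD25- PP and circles for colon, grey for iHET and red for iKO. On the Adam8 axis the colonic iKO libraries (204 to 223 CPM) lie between the CD25- PP libraries and the colonic iHET libraries (299 to 331 CPM). On the y axes colonic iKO replicate 2 lies above colonic iHET replicate 1 for Furin (672 against 617 CPM) and Pcsk1 (47.7 against 43.8 CPM).

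Genes with related roles were counted from 10 lists covering 74 genes besides the 8. The lists were chosen with earlier results of these data known, so nothing is read from the counts and medians below. In the organ comparison of iHET, 12 of 67 tested were higher and 2 lower in colonic Tregs (median log2 0.25, beside -0.0086 over all genes, where 4.22% rose and 2.23% fell). For iKO 8 were higher and 3 lower (median 0.20, beside 0.014 over all genes, where 2.48% rose and 1.59% fell). In colonic iKO against iHET 0 of 64 passed by edgeR, where 0.00613% of all genes did, with 25 values above and 39 below 0 (median -0.08). In CD25- PP Tregs 0 of 63 and 0% of all genes passed, with 46 values above 0 (median 0.11). In PP Tregs 3 of 59 were higher and 4 lower in KO (median 0.0026), beside 0.99% and 2.36% of all genes.

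Among the 9 listed ADAM proteases, other members joined Adam8 in the colon. Adam9, a widely expressed sheddase, measured 16.3 and 11.3 CPM in CD25- PP iHET and 42.4, 55.2 and 57.9 CPM in colonic iHET (log2 1.91, SE 0.232, adjusted p = 0.00349, edgeR). In iKO its difference was 1.16 (adjusted p = 0.0307). Adam12, or meltrin alpha, was scarce at 3.01 to 4.47 CPM in CD25- PP iHET and rose by 1.85 in iHET (SE 0.284, adjusted p = 0.00872) and 1.94 in iKO (adjusted p = 0.0111). Adam15 (1.05, adjusted p = 0.0127) and Adam33 (1.97, adjusted p = 0.0496, at 1.70 and 1.75 CPM in CD25- PP iHET) also passed in iHET and are named after their values were seen. Adam9, Adam12 and Adam15 lost the iHET call without CD25- PP iHET replicate 2, at adjusted p = 0.0531, 0.117 and 0.133, Adam15 also without replicate 1 (0.0682), and Adam33 lost it in 7 of the 10 fits without a library, up to adjusted p = 0.322. In iKO Adam12 lost the call without either CD25- PP iKO library, up to adjusted p = 0.12, and Adam9 without these or colonic iKO replicate 2 or 3, up to 0.182. Of Adam15's exon bases 1263 are shared with the antisense gene 4731419I09Rik. In the colonic genotype comparison 8 of 8 tested ADAM genes had values below 0, and 0 passed. Their median was -0.23, beside 0.0048 over all genes. Adam8 among them was picked for such values, so nothing is read from this count, the shared direction or the median.

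The partners of ADAM10 and ADAM17 were less uniform. Rhbdf2, which encodes the iRhom that carries ADAM17 to the surface, was higher in colonic iHET Tregs (log2 1.04, SE 0.179, adjusted p = 0.0119), at 58.7 to 69.9 CPM against 25.5 and 36.9 CPM. Tspan17, a tetraspanin partner of ADAM10, was higher in iHET (2.09, SE 0.333, adjusted p = 0.0101) and iKO (1.99, adjusted p = 0.0173). Without CD25- PP iHET replicate 2 both lost the iHET call, at adjusted p = 0.134 and 0.13, and Tspan17 lost the iKO call without either CD25- PP iKO library or colonic iKO replicate 2, up to 0.135. Tspan15, another such partner, had 57 and 46 counts in PP HET and 5 and 3 in KO (log2 -3.31, SE 0.606, adjusted p = 0.0159), and lost its call without any one of the 4 libraries, up to adjusted p = 0.203. In those PP libraries 6 of 8 epithelial markers (Alpi, Fabp2, Cdh17, Krt20, Krt8 and Epcam) fell as well, with sums of 111 and 169 CPM in HET, against 42.8 and 48.6 CPM in KO, and their part in the Tspan15 difference was not tested. Timp3, an inhibitor of ADAM proteases, had 13 and 24 counts in PP HET and 73 and 159 in KO (log2 2.66, SE 0.543, adjusted p = 0.0398), a call lost without either HET library or KO replicate 2, up to adjusted p = 0.277.

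Of the proteins that these enzymes shed, Havcr2, encoding the checkpoint receptor TIM-3, differed most between organs. It had 6.26 and 5.33 CPM in CD25- PP iHET and 54.0, 76.2 and 92.2 CPM in colonic iHET (log2 3.67, SE 0.219, adjusted p = 0.000206), and 2.65 in iKO (adjusted p = 0.000710), calls that held in every fit without a library. Cd44, the hyaluronan receptor, rose by 1.36 in iHET (SE 0.154, adjusted p = 0.00235) and 1.01 in iKO (adjusted p = 0.0112), the iKO call being lost without either CD25- PP iKO library or colonic iKO replicate 2, up to 0.104. Selplg, which encodes PSGL-1, was at 563 and 576 CPM in CD25- PP iKO and 874 to 880 CPM in colonic iKO (log2 0.62, SE 0.139, adjusted p = 0.0419), and is named after its values were seen. In iHET its difference was 0.51 (adjusted p = 0.0615), and in colonic iKO against iHET -0.11 (SE 0.133, adjusted p = 0.955). Cd40lg was lower in colonic iKO Tregs than in CD25- PP iKO Tregs (-0.80, SE 0.177, adjusted p = 0.0381). Il1r2 fell in PP KO (-1.47, SE 0.239, adjusted p = 0.0187), while Havcr2 (1.16, adjusted p = 0.0166) and Tnfsf11 (0.56, adjusted p = 0.0114) rose. The part of the Tfr cell loss in these 3 differences was not tested. Tnfsf11, the ligand RANKL, was also higher in colonic than CD25- PP iHET Tregs (0.64, SE 0.155, adjusted p = 0.0405), and Il6ra, named after its values were seen, was lower (-1.51, SE 0.375, adjusted p = 0.0406). These 2 calls were each lost in 8 of the 10 fits without a library, up to adjusted p = 0.359 and 0.309, both without CD25- PP iHET replicate 2. The Selplg call was lost in 7 of 10 such fits, up to 0.249, and the Cd40lg call in the 5 fits without an iKO library, up to 0.256. All 3 PP KO calls were lost without either HET library, up to 0.185 for Il1r2, 0.161 for Havcr2 and 0.0809 for Tnfsf11, the last also without KO replicate 2.

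Of the 8 convertases fitted, only Furin passed in the organ comparisons, leaving aside Pcsk1, which was picked for its values and is given no test. The 8 listed convertase substrates included Tgfb1, which was higher in colonic iHET Tregs at 434 to 543 CPM against 248 and 312 CPM (log2 0.75, SE 0.154, adjusted p = 0.0240, lost without CD25- PP iHET replicate 2 at 0.234 and without colonic iHET replicate 3 at 0.0509). In colonic iKO it averaged less by -0.20 (SE 0.126, adjusted p = 0.947), and 7 of the 8 substrates had values below 0 there, with 0 called. As the lists were chosen with earlier results known, nothing is read from that count. Igf1r was lower in colonic than CD25- PP Tregs of iKO (-1.38, SE 0.280, adjusted p = 0.0277, lost in 4 of 10 fits without a library, up to 0.218 without CD25- PP iKO replicate 2). Of the basic carboxypeptidases, Cpm, a membrane-anchored relative of Cpd, was at 437, 845 and 605 CPM in colonic iHET and 162 and 78.2 CPM in CD25- PP iHET (2.39, SE 0.344, adjusted p = 0.00782), and at 2.01 in iKO (adjusted p = 0.0206). In colonic iKO against iHET its difference was -0.28 (SE 0.124, adjusted p = 0.947). The iHET call was lost without CD25- PP iHET replicate 2, at adjusted p = 0.0780, and the iKO call without either CD25- PP iKO library or colonic iKO replicate 2, up to 0.199.

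Lysosomal proteases other than legumain went in both directions. Ctsh, an aminopeptidase cathepsin, was higher in colonic Tregs, by 2.59 in iHET (SE 0.438, adjusted p = 0.0138) and 2.69 in iKO (adjusted p = 0.0191), whereas Ctsw, a cathepsin of cytotoxic lymphocytes, fell by 1.03 (SE 0.143, adjusted p = 0.00435) and by 0.79 (adjusted p = 0.0181). Ctsw stood at 140 and 137 CPM in CD25- PP iHET and 73.3, 59.5 and 71.0 CPM in colonic iHET, and its iHET call held in every fit without a library. In PP KO Tregs Ctsl fell from 36.9 and 34.9 CPM to 9.98 and 11.9 CPM (log2 -1.71, SE 0.137, adjusted p = 0.00149), a call that held without any one library. Ctsh fell there too (-1.15, SE 0.219, adjusted p = 0.0325), but lost the call without any one of the 4 libraries, up to adjusted p = 0.191. It lost the iHET organ call without CD25- PP iHET replicate 2 (adjusted p = 0.173) and the iKO organ call without either CD25- PP iKO library or colonic iKO replicate 2, up to 0.144, and Ctsw lost its iKO call without any of those or colonic iKO replicate 3, up to 0.192. Ctsh is also expressed by macrophages. Macrophage and dendritic cell markers were above 0 in the organ comparison of iHET for 10 of 10 tested, and their part in the Ctsh difference was not tested. In PP KO Tregs 8 of 8 epithelial markers were below 0 and 6 passed. So were 9 of 9 tested macrophage and dendritic cell markers and 6 of 6 B and plasma cell markers, of which 0 passed. The part of these markers in the Ctsl and Ctsh falls in PP KO was not tested.

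**Figure D5:**
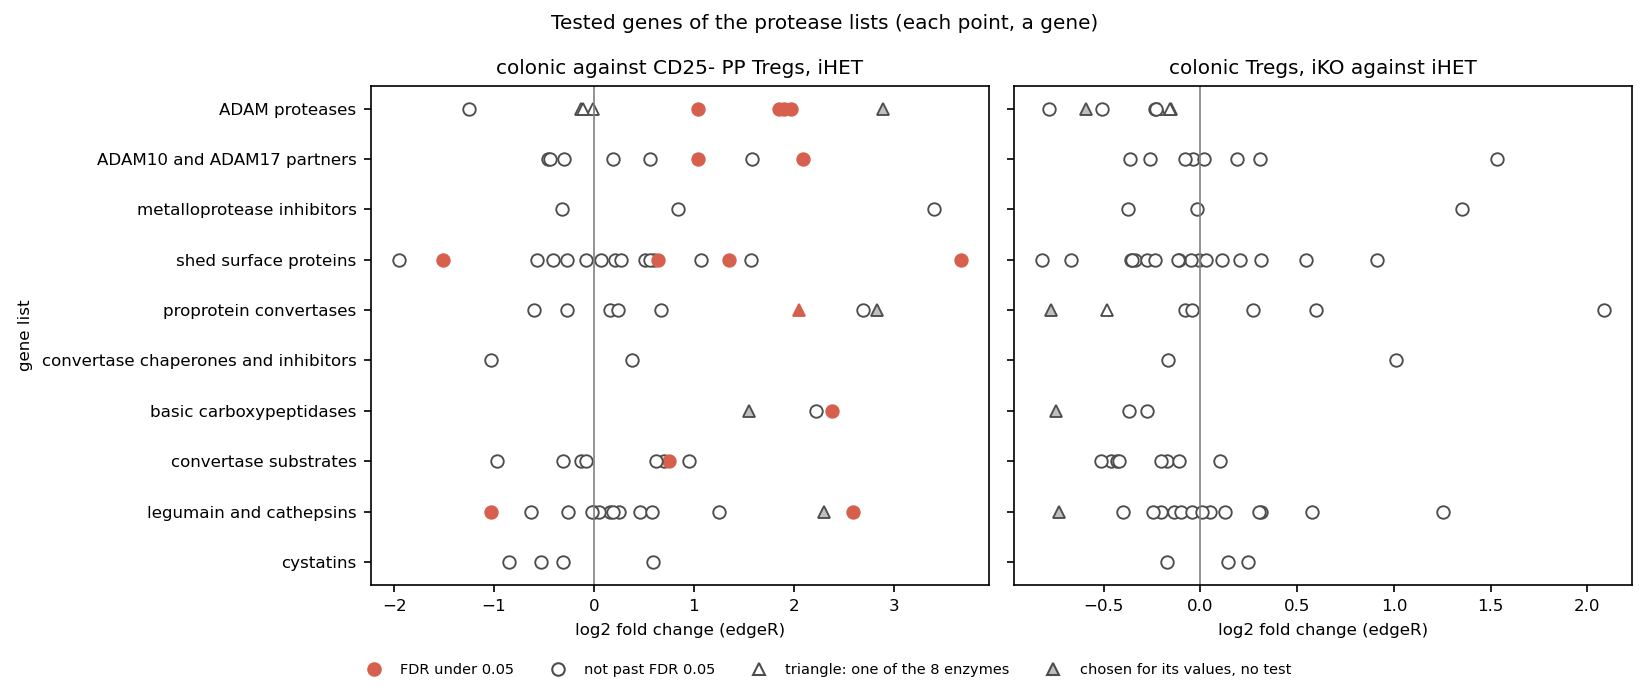
Log2 fold change (x axis, edgeR) of each tested gene of the 10 lists (y axis) between colonic and CD25- PP iHET Tregs (left) and between colonic iKO and iHET Tregs (right), red for adjusted p under 0.05, with triangles for the 8 enzymes and grey triangles for the 4 that were chosen for their values and have no test. On the left, red points of 7 lists stand mostly right of 0. On the right no point is red, and all ADAM genes and basic carboxypeptidases lie left of 0. Adam8 and Cpd among these were picked for their values, so nothing is read from the shared side.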

How the data were processed

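RNA-seq of sorted Tregs was read from the deposited gene counts, made by the authors with Trim Galore, STAR and featureCounts on mm10 per the labels and the study's methods. The inducible libraries were sequenced paired-end and handled as single-end, from low-input cDNA. Strand was not used in counting. Gene symbols, exon lengths and positions came from a GENCODE annotation of GRCm38, a release close to but not the authors' own, which matched 53706 of 53801 and 55394 of 55487 identifiers. Each table was analysed on its own.

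Counts were fitted with the edgeR (4.0.16, R 4.3.3) quasi-likelihood test, TMM scaling and a prior count of 1, on genes with at least 1 CPM in as many libraries as the smallest group. The Benjamini-Hochberg threshold was 0.05 over all genes tested. PP and CD25- PP Tregs were each fitted alone, colonic Tregs with mouse number as a block for cage, and organ comparisons over all 10 inducible libraries in 4 groups. Figures were drawn with matplotlib 3.10.9. TPM used exon-union lengths. Total counts of 26274861 to 35508709 set the depth. On simulated counts for 16418 genes in the CD25- PP design, 52% of genes changed 2-fold and 95% of those changed 4-fold were called. For 15858 genes in the colonic design the values were 60% and 95%. In the measured CD25- PP libraries 0 of 17079 genes passed, and Junb missed at log2 -2.44 (adjusted p = 0.0940, edgeR). Whether the simulated rates hold for the measured libraries was not tested.

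Named genes were Junb, the 8 members, up to 3 called genes per list by lowest p in each comparison (otherwise the highest-expressed one), and the 5 genes most like Adam8. Members and lists were chosen with earlier results of these data known. Alternatives were the study's exact and likelihood ratio tests, DESeq2 (1.42.0), its size factors, no filter, a smaller prior count, adding or removing the replicate block, and leaving out each library.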

Additional observations from a re-analysis of the deposited data

Results flagged for a closer look

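Adam8 was marked because its values went in opposite directions in the 2 organs: in CD25- PP Tregs both iKO libraries were above both iHET libraries (log2 difference 0.67), and in colonic Tregs all 3 iKO libraries were below all 3 iHET libraries (-0.59). The organ by genotype term was -1.26 (SE 0.320). Adam8 was chosen for such values, so this is a description with no test, and without CD25- PP iKO replicate 2 the first difference was 0.11.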

How the results depend on the processing

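Calls in these small groups depended on the test, and the cause was not tested. In PP Tregs, beside 409 genes and 0 members by edgeR, the study's exact test called 691 genes and 2 members, DESeq2 696 and 2, no filter 1305 and 4, and leaving out a library 54 to 313 genes and 0 to 1 members. In CD25- PP Tregs (0 and 0), the exact test called 45 genes, DESeq2 35 and no filter 232 with 1 member, and leaving out a library 0 to 128 genes. In colonic Tregs (1 and 0), the likelihood ratio test called 25 genes and 2 members, DESeq2 50 and 4, no filter 24 and 1, and leaving out a library 0 to 8 genes. The members called in colonic Tregs were all genes picked for their values. For organ in iHET (1201 and 5), DESeq2 called 2504 genes, no filter 2848, and leaving out a library 137 to 1700 genes and 3 to 5 members. For organ in iKO (758 and 4), DESeq2 called 2233 genes, no filter 2348, and leaving out a library 74 to 1096 genes and 1 to 4 members. For the interaction (0 and 0), DESeq2 called 2 genes, no filter 282 with 1 member, and leaving out a library 0.

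With the replicate block, 1015 genes and 5 members (Adam19 and Furin among them) were called in PP Tregs, 0 and 0 in CD25- PP Tregs, 900 and 5 for organ in iHET and 430 and 4 for organ in iKO, and without the block colonic Tregs had 1 gene and 0 members called. Deviations of same-numbered libraries correlated at 0.0982 in PP, 0.101 in CD25- PP and 0.0622, 0.293 and -0.0885 in colonic Tregs. With 2 libraries per group, as in PP and CD25- PP, the 2 numbers must give the same value, so it cannot show whether numbers pair the mice. In the inducible line same-numbered mice were of the same sex, so the block in CD25- PP Tregs is also a term for sex. The main CD25- PP and organ fits held no such term. The methods put 1 iHET and 1 iKO mouse in each cage, but no label ties number to cage.

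Values near 0 changed sign. In CD25- PP Tregs Adam19 was between -0.16 and 0.43 and Furin between -0.0385 and 0.43 when a library was left out. For organ in iHET, Adam17 was 0.0362 with the block, 0.00172 by DESeq2, 0.00168 with its size factors and 0.0327 with no filter, and between -0.0290 and 0.0136 when a library was left out, and Adam19 was 0.0815 with the block and between -0.36 and 0.23 when a library was left out. For the interaction, Pcsk1 was between -0.81 and 0.0385 when a library was left out. The lowest member value was 21 counts (0.754 CPM, under the filter level of 1 CPM), for Pcsk1 in PP KO replicate 1. Replicate 2 had 34 counts. The part of counting error in the Pcsk1 difference of PP Tregs was not tested.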
